A study of Rattus norvegicus with 8 samples.

Results

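The unfolded protein and amino acid stress response was followed in rat liver through 10 genes, Hspa5, Hyou1, Pdia4, Dnajb9, Herpud1, Xbp1, Atf4, Ddit3, Trib3 and Asns. They were taken by the gene name that the array files give each probe, and all 10 had 1 probe under that name, of 36181 genes or names on the array. All 10 probes were well above background on all 8 arrays, so each gene was among the 21875 that were tested. Liver RNA of male Wistar rats had been hybridised to 1-colour Agilent arrays. Control rats (n = 4 by the labels) received maltodextrin at 3.0 g/kg body weight, and the others (n = 4) received structured lipids carrying butyrate, named STL here, by daily gavage at 1.65 g/kg, with equal energy in both doses. In both groups the resistant hepatocyte protocol, which induces liver tumours by chemical means, began at week 2 of treatment, and livers were taken at week 8, so no group was free of the carcinogenic treatment. The ages of the rats were not given in the sources used here. The comparison asks which transcripts differ when the lipid is given during hepatocarcinogenesis.

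When unfolded proteins build up in the endoplasmic reticulum (ER), the membrane sensors ATF6, IRE1 and PERK raise the chaperones and degradation factors of the ER. PERK phosphorylates the translation factor eIF2alpha, as does GCN2 when amino acids are short, and the ATF4 protein that is then translated raises genes of amino acid supply and the factors CHOP and TRIB3. Hepatocytes secrete most plasma proteins and depend on this folding machinery. In whole liver RNA, fewer cells of a type and less RNA per cell cannot be told apart.

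The chaperone genes are reached through short promoter elements, and these are shown because ERSE elements are read by ATF6 and XBP1, and the amino acid response motif by ATF4. The windows searched were RefSeq sequences of build GRCr8, from 250 bases before to 50 after a gene's start, which matched all 10 genes in 11 windows. Both strands were searched for 4 motifs. The ER stress element ERSE, which is CCAAT, 9 unspecified bases and CCACG, was present in 0.0657% of all 33469 windows. ERSE-II, which is ATTGG, 1 unspecified base and CCACG, was present in 0.0508%, the UPR element TGACGTG in 1.81%, and the amino acid response motif TGATGNAA in 3.98%. ERSE was found before Hspa5 and Xbp1, and ERSE-II before Hyou1, at 2 places, and before Herpud1. The stretches below are upstream of the start, with the fixed letters of each match in capitals. They lie at chr3:38452866-38453005 on the plus strand (Hspa5), chr14:84604533-84604592 on the plus strand (Xbp1), chr8:53602682-53602811 on the plus strand (Hyou1) and chr19:10614813-10614902 on the minus strand (Herpud1).
Hspa5: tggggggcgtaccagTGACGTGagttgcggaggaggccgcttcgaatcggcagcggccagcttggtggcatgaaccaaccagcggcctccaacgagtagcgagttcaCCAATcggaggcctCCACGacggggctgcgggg
Xbp1: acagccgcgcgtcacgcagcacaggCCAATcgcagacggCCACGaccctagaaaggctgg
Hyou1: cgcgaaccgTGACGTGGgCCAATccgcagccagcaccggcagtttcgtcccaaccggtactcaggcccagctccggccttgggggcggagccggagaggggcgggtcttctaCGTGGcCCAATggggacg
Herpud1: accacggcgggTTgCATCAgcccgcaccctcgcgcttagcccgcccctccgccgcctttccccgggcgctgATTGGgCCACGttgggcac
In Hspa5 the first capitals are the UPR element and the later ones the ERSE. In Hyou1 the UPR element overlaps the first of the ERSE-II matches, which both read on the opposite strand. In Herpud1 the first capitals are the amino acid response motif on the opposite strand, and the later ones ERSE-II. The amino acid response motif also lay before Trib3, starting at position -21 and on the opposite strand, and the windows of the other 5 genes held none of the 4 motifs. A match describes these letters and does not show that a factor binds there.

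The signal of each array was taken as log2 of the processed signal minus the array's 75th percentile, so that 0 is the 75th percentile and 1 unit is a 2-fold change. That percentile lay between 304 and 605 on the linear scale, and 54.2% to 62.9% of probes were well above background. Between control 1 and control 2 the spots differed by 1.04 times the noise of repeated spots on 1 array, against 2.14 to 6.83 times for the other 27 pairs of arrays. These arrays were therefore averaged and counted as 1 sample, which leaves 3 control and 4 STL samples. The labels name separate rats, and whether these are separate livers was not settled here. The array closest to both was that of STL 6, at 2.14 and 2.20 times the noise, and 6 of the 8 columns in the authors' value table hold another array of the same group, so that numbers within a group name arrays rather than settled animals. Of 8 hepatocyte markers all 8 were detected and tested.

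No gene of the 10 passed the threshold of 0.05 after adjustment over all 21875 genes (limma adjusted p between 0.166 and 0.962), a threshold that 0.00457% of all genes, the single gene Cish, passed. Unadjusted, 4 of the 10 had p under 0.05 in the limma fit, Hspa5, Hyou1, Herpud1 and Ddit3, all higher in STL, against 18.9% of all genes in either direction, 11.5% that were higher and 7.38% that were lower by that rule. Of all genes with an unadjusted p under 0.05 by limma, 61.0% were higher in STL, a share of 45.5% with median scaling and 75.5% with the normexp background. Groups did not overlap for 3 of the 10, Hspa5, Hyou1 and Ddit3, all higher, while 11.2% of all genes were higher and 5.62% lower without overlap. With slide column as a block, over 8 arrays, 5 of the 10 had p under 0.05 by limma, these 4 and Asns, which was lower by that fit (-0.79, limma adjusted p = 0.252). With quantile normalization 2 genes, Hyou1 and Ddit3, had p under 0.05, and 1, Ddit3, did not overlap. Across the 10 genes 9 differences were above 0, with a median of 0.31, against 58% of all genes and a median of 0.06.

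**Figure D1:**
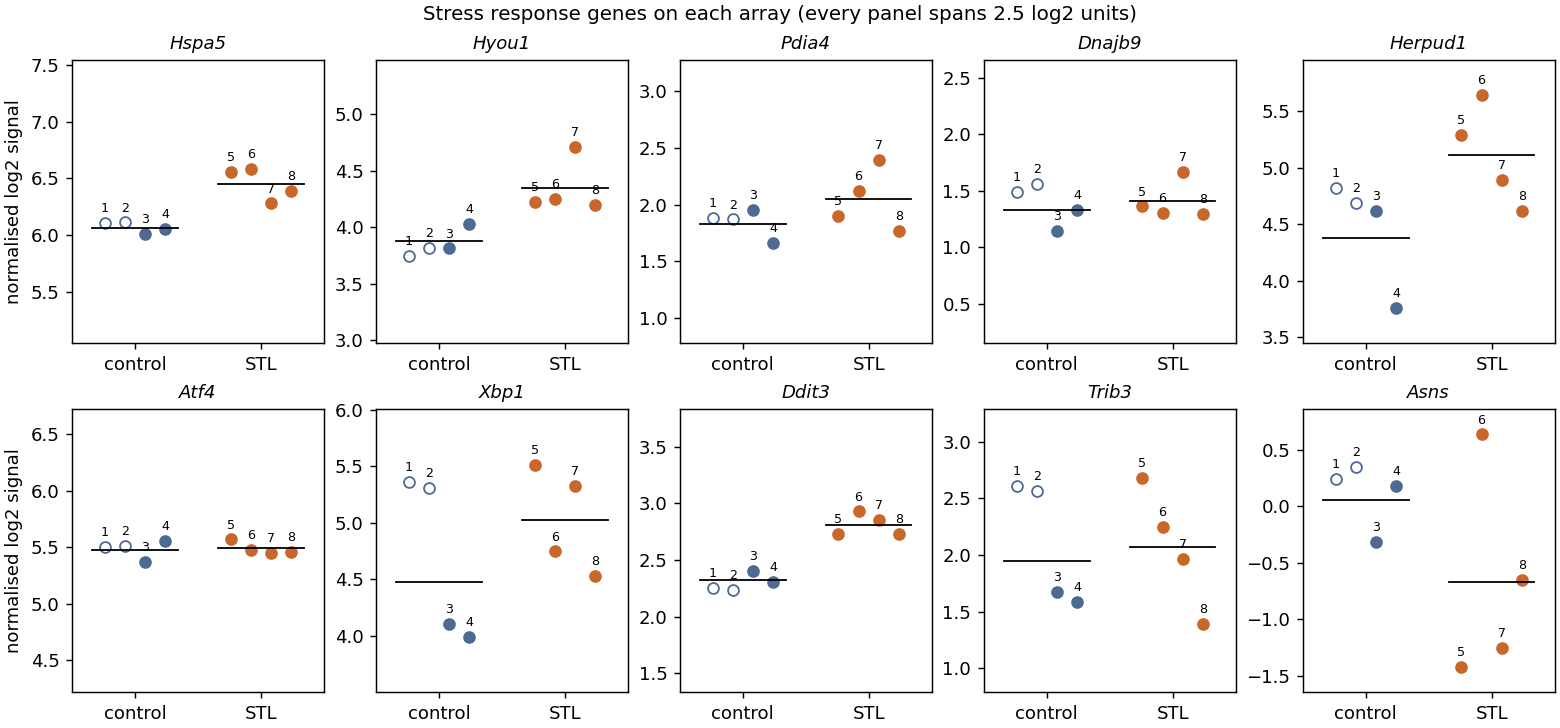
Normalised log2 signal (vertical axis, 2.5 units in every panel) of the 10 genes on the 4 control and 4 STL arrays, with array numbers above the points, control 1 and control 2 as open circles and lines at the group means of 3 control and 4 STL samples. Every STL array lies above every control array for Hspa5, Hyou1 and Ddit3, while the arrays of the groups interleave for Xbp1 and Trib3.

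Hspa5 encodes BiP, the main ATP-driven chaperone of the ER, which also holds the stress sensors inactive. Its normalised log2 signal was 6.11 in control 1 and in control 2, 6.01 in control 3 and 6.05 in control 4. In the STL livers it was 6.56, 6.58, 6.28 and 6.39 for STL 5 to STL 8. All 4 STL values lay above every control, with a gap of 0.17 between the groups. The difference was 0.40 (SE 0.12, 95% interval 0.12 to 0.67), or 1.32-fold, from 6.06 ± 0.05 (SD, n = 3) to 6.45 ± 0.14 (SD, n = 4), and did not pass over all genes (limma adjusted p = 0.180). Hspa5 is printed 10 times on the array, and those spots varied by an SD of 0.033 to 0.047 within an array, less than the SD between STL livers. With quantile normalization the difference was 0.28 and the groups overlapped.

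Hyou1 encodes a large ER chaperone that exchanges nucleotide on BiP. It was at 3.75, 3.82, 3.81 and 4.03 in controls 1 to 4 and at 4.22, 4.25, 4.71 and 4.20 in STL 5 to STL 8. STL 7 was high, and the other STL livers were close together above the highest control. The difference was 0.47 (SE 0.15, 95% interval 0.13 to 0.81), or 1.39-fold, from 3.88 ± 0.14 (SD, n = 3) to 4.35 ± 0.24 (SD, n = 4), not past the threshold (limma adjusted p = 0.189). With quantile normalization it was 0.34 and the groups overlapped.

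The other 2 chaperone genes overlapped between the groups. Pdia4, which encodes the ER protein disulfide isomerase ERp72, was at 1.88, 1.87, 1.95 and 1.66 in the controls and at 1.90, 2.12, 2.39 and 1.76 in the STL livers. STL 7 was again the highest and STL 8 lay among the controls. The difference was 0.22 (95% interval -0.15 to 0.59, limma adjusted p = 0.477), and it was 0.0995 without STL 7, 0.13 without control 4 and 0.042 with array weights. Dnajb9, which encodes the BiP cochaperone ERdj4, an IRE1 and XBP1 target, was at 1.49, 1.56, 1.14 and 1.33 in the controls and at 1.36, 1.31, 1.67 and 1.29 in the STL livers. Its difference of 0.07 (95% interval -0.24 to 0.39, limma adjusted p = 0.793) was smaller than the SD within either group, and it was -0.02 without control 3 and -0.01 without STL 7.

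Herpud1 encodes a membrane protein of the ER that takes part in the degradation of misfolded proteins. Its signal was 4.82, 4.69, 4.62 and 3.76 in the controls and 5.29, 5.64, 4.89 and 4.61 in the STL livers. Control 4 was the lowest array and STL 8 lay within the control range, so that 3 of 4 STL livers were above every control. The difference of 0.73 (SE 0.298, 95% interval 0.06 to 1.41), or 1.66-fold, was the largest of the 9 above 0 on the log2 scale and did not pass (limma adjusted p = 0.242). It was 0.42 without control 4 and 0.43 with array weights.

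**Figure D2:**
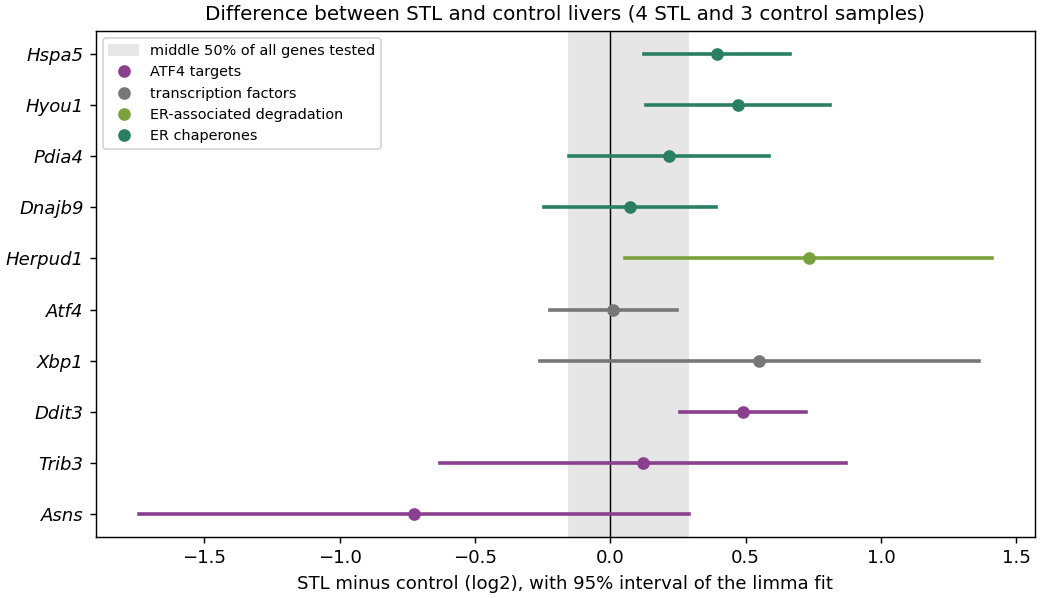
Difference between STL and control livers on the log2 scale (horizontal axis) for each gene, with points for the estimate and bars for the 95% interval of the limma fit over 3 control and 4 STL samples, coloured by role, and a grey band for the middle 50% of all genes tested (-0.15 to 0.29). The intervals of Hspa5, Hyou1, Herpud1 and Ddit3 lie above 0, and that of Asns reaches from -1.74 to 0.29.

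The transcription factor genes of the response differed in how much they varied between livers. Atf4, whose protein is controlled mainly by translation, was at 5.50, 5.51, 5.37 and 5.56 in the controls and at 5.57, 5.48, 5.45 and 5.46 in the STL livers. The arrays lay within a narrow range, the difference was 0.01 (95% interval -0.22 to 0.24, limma adjusted p = 0.962), and its sign turned in 5 of 21 other settings, over which it lay between -0.13 and 0.07. Its probe, also printed 10 times, varied by an SD of 0.015 to 0.031 within an array. Xbp1, whose mRNA is spliced by IRE1 into the form that encodes the active factor, was at 5.36, 5.31, 4.10 and 3.99 in the controls and at 5.51, 4.75, 5.32 and 4.53 in the STL livers. The array measures the total of both forms of the mRNA only if the probe lies outside the spliced stretch, which was not settled here. Controls 1 and 2 lay with STL 5 and STL 7 at the top, and controls 3 and 4 were below every STL liver. The difference of 0.55 (95% interval -0.26 to 1.36, limma adjusted p = 0.409) was 0.31 without control 4, 0.36 without control 3, 0.34 with each of the 8 arrays as a sample, and 0.98 with controls 1 and 2 both left out. In that last setting the groups did not overlap (limma adjusted p = 0.116).

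Ddit3 encodes CHOP, a target of ATF4 that promotes cell death under lasting ER stress. It was at 2.25, 2.24, 2.40 and 2.31 in controls 1 to 4 and at 2.73, 2.93, 2.85 and 2.73 in STL 5 to STL 8. All 4 STL livers were above every control, with a gap of 0.32, the widest of the 10 genes. The difference was 0.49 (SE 0.10, 95% interval 0.26 to 0.72), or 1.41-fold, from 2.32 ± 0.08 (SD, n = 3) to 2.81 ± 0.10 (SD, n = 4). Its unadjusted p by limma, 0.00111, was the 141st smallest of 21875, and it did not pass over all genes (limma adjusted p = 0.166). Over 21 other settings its difference lay between 0.42 and 0.53 and its limma adjusted p between 0.037 and 0.364.

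The groups overlapped for the other ATF4 targets, Trib3 and Asns. The probes of Trib3 and Asns, and that of Atf4, are shown as the 60 bases on the array, each the only probe under its gene name. For Asns a further probe under another name is given below. On rn4, the build given in the file headers, they lie at chr3:142664936-142664995 on the minus strand (Trib3), chr4:32759136-32759195 on the minus strand (Asns) and chr7:118538840-118538899 on the plus strand (Atf4). The exon or UTR each falls in was not read here.
Trib3: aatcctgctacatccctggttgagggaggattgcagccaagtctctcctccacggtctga
Asns: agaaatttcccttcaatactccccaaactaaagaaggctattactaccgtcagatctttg
Atf4: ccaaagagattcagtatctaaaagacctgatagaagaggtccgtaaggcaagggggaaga
Trib3 encodes a pseudokinase that inhibits AKT and, in turn, ATF4. It was at 2.61, 2.57, 1.67 and 1.59 in the controls and at 2.68, 2.25, 1.97 and 1.39 in the STL livers, so that the controls held arrays near both ends of the range. The difference of 0.12 (95% interval -0.63 to 0.87, limma adjusted p = 0.861) was below 0 in 6 of 21 other settings, among them -0.06 without control 4, -0.016 without control 3, -0.08 without STL 5 and -0.04 with 8 arrays as samples.

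Asns, asparagine synthetase, makes asparagine from aspartate and glutamine. Its 2 spots gave 0.24, 0.35, -0.32 and 0.18 in the controls and -1.42, 0.63, -1.25 and -0.65 in the STL livers. STL 6 had the highest value of all arrays, and the other 3 STL livers lay below every control. The difference of -0.72 (95% interval -1.74 to 0.29, limma adjusted p = 0.388) was -1.16 without STL 6, -0.48 without STL 5, -0.44 with array weights and -0.79 with slide column as a block. A further probe, which the files name by the transcript ENSRNOT00000010079 and describe as Asns, lies at chr4:32758667-32758726 in rn4. It was at -1.34, -1.56, -1.90 and -1.26 in the controls and at -2.87, -1.02, -3.72 and -2.39 in the STL livers, with STL 6 again the highest. Its difference was -0.96 (limma adjusted p = 0.349).

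**Figure D3:**
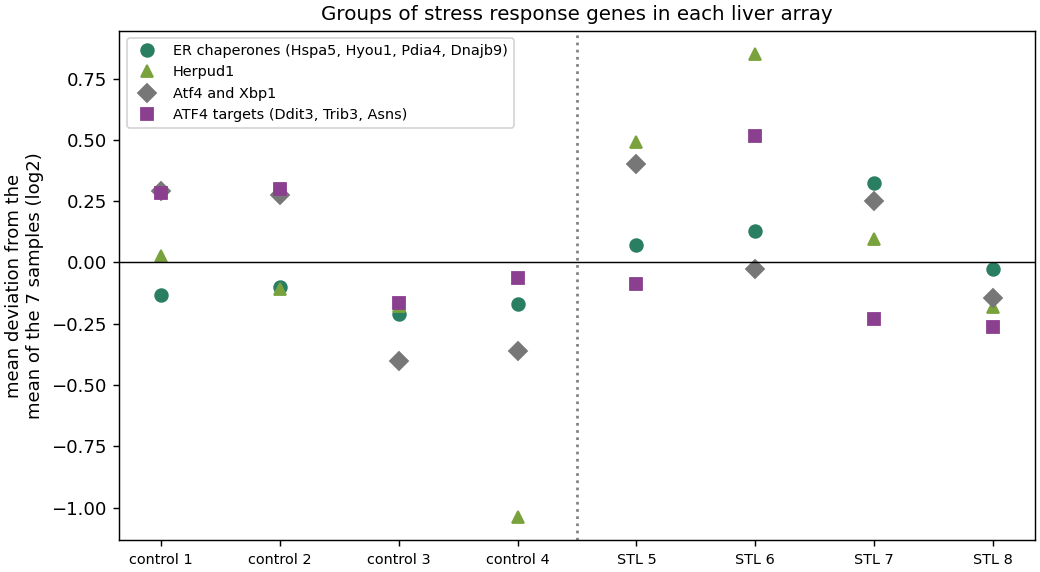
Mean deviation of each group of genes from the mean of the 7 samples (vertical axis, log2) on each of the 8 arrays, with circles for the 4 ER chaperones, triangles for Herpud1, diamonds for Atf4 and Xbp1 and squares for the 3 ATF4 targets. The chaperones lie lower on every control array than on any STL array, and the ATF4 targets are highest in STL 6.

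As groups, the ER chaperones and the ATF4 targets were set side by side by their mean deviation from the mean of the 7 samples, as a description with no test. For Hspa5, Hyou1, Pdia4 and Dnajb9 it was -0.12 in the averaged control 1 and 2, -0.21 in control 3 and -0.17 in control 4. It was 0.07, 0.13, 0.32 and -0.03 in STL 5 to STL 8, and the mean difference was 0.29 and the median 0.31. For Ddit3, Trib3 and Asns the deviation was 0.29, -0.17 and -0.06 in the same control samples and -0.09, 0.52, -0.23 and -0.26 in the STL livers. The mean difference of these 3 targets was -0.04, the sum of a higher Ddit3, a lower Asns and a Trib3 near 0, and the median was 0.12. The direction of that mean turned, from -0.21 without STL 6 to 0.034 without STL 7, 0.045 without STL 8, 0.098 without controls 1 and 2 and 0.013 with array weights. Chaperones minus targets differed between STL and control by 0.33 on the log2 scale. That value was 0.503 without STL 6, 0.19 without STL 7 and 0.22 with controls 1 and 2 both left out, and 0.40 with Herpud1 and Atf4 added to their sides. Per sample it was -0.41 in the averaged control 1 and 2 and -0.39 in STL 6, so that the groups overlapped.

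Around these 10 genes, 100 others of the pathway were grouped by role in 6 lists, of which 94 were tested. None of the 94 passed over all genes by limma, and 21 had an unadjusted p under 0.05, where 18.9% of all genes did. Of the 94, 8 were higher by that rule and 13 lower, beside 11.5% and 7.38% of all genes, and 8 did not overlap on the higher and 7 on the lower side, beside 11.2% and 5.62%. The 13 and the 7 both include Slc1a4 and Vldlr, each well above background on 1 STL array, which entered the test through the control arrays. Overlap was counted with controls 1 and 2 averaged. On the single arrays the groups overlapped for Derl3 and Slc38a2 of the higher genes and for Fkbp14 and Vldlr of the lower. Slc7a11 and Mthfd2, an enzyme of mitochondrial folate metabolism named here after its values were seen, passed without STL 6 (limma adjusted p = 0.00389 and 0.0166). Ero1b passed with controls 1 and 2 both left out (0.0409). With array weights 10 genes passed, some higher and some lower, and Slc1a4 was among them.

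Among 21 other ER chaperones and folding enzymes 13 were higher, beside 58% of all genes, with a median difference of 0.06, which was 0.020 without control 4, 0.141 without STL 8 and -0.0059 with quantile normalization. By limma 2 were higher and 2 lower at an unadjusted p under 0.05, beside 11.5% and 7.38% of all genes. Ero1b, an oxidase that recharges protein disulfide isomerases, was at 3.97, 3.93, 3.64 and 3.24 in the controls and at 4.29, 4.41, 4.24 and 4.41 in the STL livers, a difference of 0.73 without overlap (limma adjusted p = 0.166). Creld2, an ER stress-induced folding factor, differed by 0.50 with overlap (limma adjusted p = 0.209). Of 15 genes of ER-associated degradation and export 11 were higher, beside 58% of all genes, and 4 did not overlap, all higher, beside 11.2%. Their median of 0.13 was 0.025 with quantile normalization, 0.038 with normexp, 0.067 with 8 arrays as samples and 0.22 without controls 1 and 2. Derl3, a membrane component of the degradation machinery that is also in the list of plasma cell markers, differed by 0.56 and Os9, a lectin that recognises misfolded glycoproteins, by 0.64, neither past the threshold (limma adjusted p = 0.179 and 0.185). Derl3 did not overlap with controls 1 and 2 averaged, but on the single arrays STL 6 (-1.12) lay below control 1 (-1.11).

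The sensors and transcription factors showed no common direction. Of 11 sensors, eIF2alpha kinases and phosphatase subunits 4 were higher and 7 lower, with a median of -0.05. Atf6, the sensor that is itself cut to release a transcription factor, was at 3.26, 3.32, 3.09 and 3.01 in the controls and at 3.46, 3.48, 3.60 and 3.47 in the STL livers. These groups did not overlap, and the difference was 0.37 (limma adjusted p = 0.179). Ppp1r15b, a subunit of the phosphatase that reverses eIF2alpha phosphorylation, differed by 0.44 with overlap (limma adjusted p = 0.238). Of 8 further stress transcription factors 4 were higher and 4 lower. Their median of 0.04 turned to -0.104 without control 4, -0.053 with quantile normalization, -0.019 with 8 arrays as samples and below 0 also with median scaling and normexp, and it was 0.165 without controls 1 and 2. Creb3 differed by -0.25 and Nupr1, a stress-induced chromatin protein, by -0.31 (limma adjusted p = 0.245 and 0.299).

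Other ATF4 targets were mostly lower. Of 23 tested genes of amino acid supply and signalling 18 were lower and 5 higher, with a median of -0.30, and by limma 8 were lower and 2 higher at an unadjusted p under 0.05, beside 7.38% and 11.5% of all genes. The 8 include Slc1a4 and Vldlr, each well above background on 1 of 4 STL arrays, which entered the test through the control arrays. Of the 21 genes well above background on all 8 arrays 16 were lower, 6 of them at that p, with a median of -0.24. Slc1a4, a transporter of neutral amino acids, was at -3.35, -3.68, -3.50 and -3.41 in the controls and at -4.74, -4.36, -4.75 and -5.13 in the STL livers. Its probe was well above background on 4 control arrays and on 1 STL array, so the other STL values are at background and no size of the difference is given. Slc7a11, the cystine importer, which is also a target of NRF2, was at 0.57, 0.53, 0.30 and 1.25 in the controls and at -4.14, -0.32, -3.85 and -3.28 in the STL livers. Its difference was -3.60 (limma adjusted p = 0.168), and STL 6 stood between the controls and the other STL livers. The mean deviation of the 23 genes, Slc1a4 and Vldlr included, was 0.29, 0.29 and 0.31 in the averaged control 1 and 2, control 3 and control 4. It was -0.42, -0.41 and -0.35 in STL 5, STL 7 and STL 8 and 0.29 in STL 6, which lay at the level of the controls. Without STL 6 the median of the 23 genes was -0.37. Neither this median nor the mean deviation was taken again over the 21 genes well above background on all 8 arrays. Of 16 aminoacyl-tRNA synthetases 10 were lower and 6 higher, with a median of -0.09 that was between -0.24 (without control 4) and -0.0024 (without STL 7) when 1 array was left out. Rars1 differed by -0.48 without overlap and Vars1 by -0.53 with overlap (limma adjusted p = 0.173 and 0.245).

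**Figure D4:**
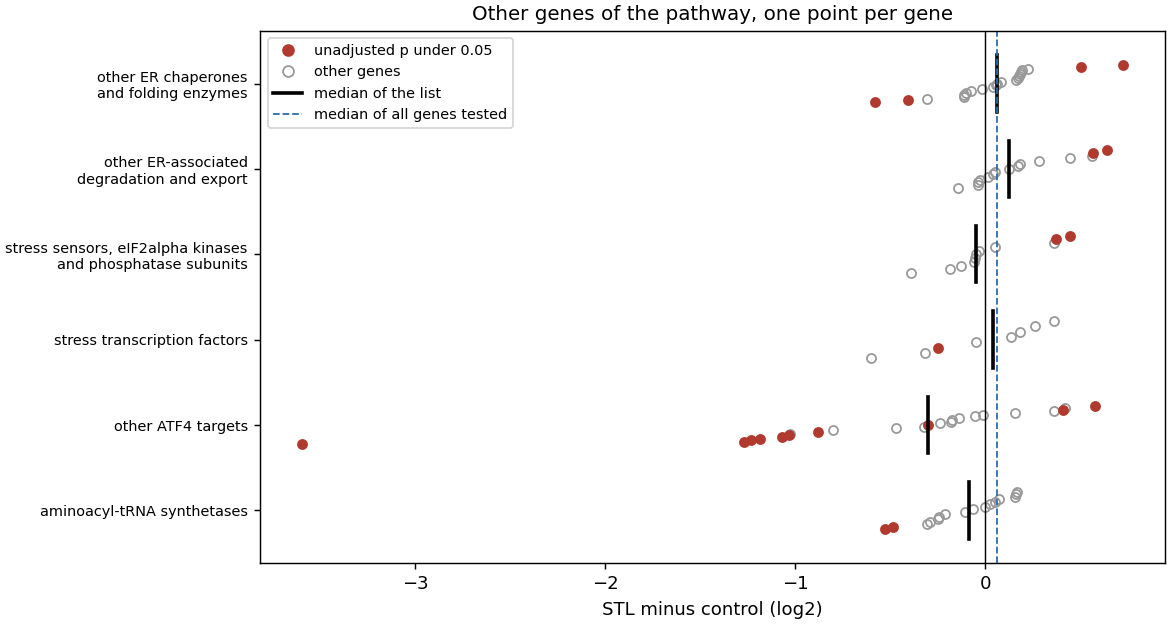
Difference between STL and control livers (horizontal axis, log2) for the 94 other genes of the pathway, 1 point per gene, filled red where the unadjusted limma p is under 0.05 and open otherwise, with a black bar at the median of each list and a dashed line at the median of all genes, 0.06. The points of the other ATF4 targets spread to the left, with Slc7a11 at -3.60, while the chaperones lie around the dashed line.

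Markers of cell types differed between the groups for some types and overlapped for others, and their part in the results was not tested. The summed level of 8 hepatocyte markers, in units of the 75th percentile, was 2181 to 3097 in the controls and 3001 to 4475 in the STL livers. Most of that sum was Alb, Apoa1, Ttr, Tf and Serpina1. Of the 8, 7 were higher, beside 58% of all genes, with Hnf4a at 0.12, and Cps1 was at -0.05. Their mean deviation was -0.52 in control 4, 0.48 in STL 7 and between -0.15 and 0.11 in the other samples. The summed level of 6 plasma cell markers, cells in which XBP1 is known to be high, was 49.4 to 55.7 in the controls and 57.7 to 100.04 in the STL livers. Of these 6, 5 were higher, with a median of 0.37, beside 58% of all genes and a median of 0.06. By limma 3 were higher at an unadjusted p under 0.05, beside 11.5% of all genes. These were Sdc1 (0.64), Tnfrsf17 (0.82) and Derl3 (0.56), and the Tnfrsf17 probe was well above background on 6 of 8 arrays. Irf4 differed by 0.17, Jchain by 0.09 and Prdm1 by -0.28, and most of the sum was Sdc1, which hepatocytes also express. The sum of 7 dividing cell markers was 16.2 to 22.1 in the controls and 11.97 to 16.03 in the STL livers. Most of that sum was Aurkb, which differed by -0.13 with overlap and was lower in controls 3 and 4 than in controls 1 and 2. All 7 were lower in STL, where 58% of all genes were higher. By limma 6 were lower at an unadjusted p under 0.05, beside 7.38% of all genes. Only 1, Top2a, did not overlap, beside 5.62% of all genes. The mean deviation of these 7 markers was 1.29 in control 3 and 1.39 in control 4, the arrays with the lowest Xbp1. It was -0.47 in the averaged control 1 and 2, among STL values of -0.85 to -0.28. Cholangiocyte markers (6 tested) summed to 4.88 to 11.1 and 2.32 to 5.69, and stellate cell markers (7 tested) to 44.6 to 93.1 and 28.5 to 41.9. The mean deviation of the cholangiocyte markers was 1.39 in control 4, 0.14 in the averaged control 1 and 2 and 0.03 in control 3. In the STL livers it was between -1.13 (STL 8) and 0.23 (STL 6). For the stellate markers it was 0.75 in control 4, -0.04 and 0.22 in the other control samples and -0.45 to -0.02 in STL livers. Of the cholangiocyte markers Sox9 was higher (0.06) and 5 were lower. Most of the stellate sum was the collagen genes Col1a1, Col1a2 and Col3a1. Lrat (-0.0008), Acta2 (0.05), Des (-0.31) and Pdgfrb (-0.50) overlapped between the groups. The sums of macrophage (7), endothelial (5) and lymphocyte (5) markers overlapped between the groups. Of the macrophage markers 3 were higher and 4 lower, and of the endothelial markers 3 were higher and 2 lower. Without overlap, C1qc was lower (-0.37) and Kdr higher (0.60), beside 5.62% and 11.2% of all genes. For Kdr this held only with controls 1 and 2 averaged, as control 2 (5.55) lay above STL 6 (5.54) and STL 8 (5.51). Of the lymphocyte markers, Cd3e and Ms4a1 were not well above background on any array.

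By Pearson correlation over the 7 samples, a description with no test, the genes most like Hspa5 were Nfix (r = 0.988), XR_145846 (r = 0.988) and Tsku (r = 0.986), of 21865 genes compared. Those most like Asns were ENSRNOT00000072492 (r = 0.988), LOC100361090 (r = 0.986) and Chpf2 (r = 0.985).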

How the data were processed

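The scanner files deposited by the authors hold, for every spot, the processed intensity and the raw and local background intensity, from Agilent Feature Extraction, version 11.5.1.1 per the file headers and 10.7 per the submitters' processing notes. The authors' value table holds the processed intensity of each array scaled to a common 75th percentile, as read from its values. Of 62976 spots per array 58717 were not controls and held 45598 probes. Spots flagged as outliers were left out (7 of the members' spots over all arrays), the remaining spots of a probe were averaged, and log2 was taken after scaling by the 75th percentile over probes. Probes were named through RefSeq accessions, symbols or synonyms of GRCr8, and the brightest probe stood for a gene. A gene was tested if 4 or more of 8 arrays had it well above background. The two-sided test was limma 3.58.1 (R 4.3.3) with eBayes moderation that follows the mean signal, adjusted by Benjamini-Hochberg. Arrays closer than 1.5 times the noise between spots were averaged.

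The members, the lists and the tests were chosen with earlier results of these data known. All 10 members are named, and for each list the genes past the threshold or else the 2 with the smallest p. Hspa5 and Asns were also set against all genes for likeness. Marker genes are named where a sum or a count turns on them, chosen with their values seen. Other settings tried were the scaling, normexp background, filter, probe rule, outlier spots, trend, array weights, slide column as a block, the authors' table and arrays left out. On simulated data for 21875 genes with 200 changed and independent noise, the fit called 50% of genes differing by 1, 81% by 2 and 96% by 3 on the log2 scale. It also called 7, 9 and 11 unchanged genes. Differences below 1, such as those of all 10 members, were not simulated, so these shares do not apply to them. The number of arrays limits the precision. p-values measure the spread between these samples. Python 3.11.15, pandas 2.3.3 and matplotlib 3.10.9 were used.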

Additional observations from a re-analysis of the deposited data

Results flagged for a closer look

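Hyou1 was 4.71 in STL 7, apart from the other 3 STL livers, which lay between 4.20 and 4.25. The gap was 0.897 of the range of the group, above the 95% critical value of Dixon's test for 4 samples. It was the only 1 of 19 sets of STL values compared that passed, and chance passes about 1 in 20. The controls, counted as 3 samples, were not compared in this way.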

How the results depend on the processing

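The count of genes past the threshold, 1, was 21 with each of the 8 arrays as a sample, 10 with the authors' value table, 1536 with array weights, 205 without controls 1 and 2, and between 1 and 45 when 1 array was left out. Of the 10 genes 0 passed in 20 of 21 settings and 3 passed with array weights, Hspa5, Hyou1 and Ddit3 (limma adjusted p = 0.0416, 0.0485 and 0.0371). With quantile normalization 2 had an unadjusted p under 0.05 and 1 did not overlap. Of the 94 pathway genes 10 passed with array weights, 1 without controls 1 and 2, and 0 to 2 when 1 array was left out. The 10 include Slc1a4, which was well above background on 1 STL array and entered the test through the control arrays. The cause was not tested.

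Hspa5, Hyou1, Pdia4, Herpud1, Xbp1 and Ddit3 were higher and Asns lower in all 21 settings. Atf4 was at -0.034 with median scaling, -0.13 with quantile normalization and -0.031 with normexp, and between -0.043 (without control 3) and 0.0503 when 1 array was left out, with -0.016 without STL 5. Trib3 was at -0.038 with the 8 arrays as samples and with slide column as a block, -0.039 with the authors' table, and between -0.082 (without STL 5) and 0.349 when 1 array was left out, with -0.016 without control 3 and -0.060 without control 4. Dnajb9 lay between -0.022 (without control 3) and 0.111, with -0.013 without STL 7, and the median of the sensors between -0.069 and 0.027 (without control 3).

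Each slide column held 1 control and 1 STL array, and with it as a block 0 of the 10 genes passed and 5 had an unadjusted p under 0.05 by limma, Asns the added gene. The replicate numbers in the labels are not shared between the groups and were not used as a block. The arrays were on 1 slide.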

Other observations

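Genes with an ER stress element were looked at after the values of the 10 genes had been seen, as a description with no test. ERSE or ERSE-II lay in the promoter window of 38 genes by symbol, of which 30 were tested, Hspa5, Hyou1, Herpud1 and Xbp1 among them. Of the other 26 genes 17 were higher and 9 lower in STL, with a median difference of 0.18, beside 58% of all genes higher and a median of 0.06. Some of the 26, among them Ero1b and Derl3, were already counted in the lists above. By limma 8 were higher at an unadjusted p under 0.05 and 2 lower, against 11.5% and 7.38% of all genes, 0 passed after adjustment, and 6 were higher without overlap and 1 lower, against 11.2% and 5.62%. Overlap was counted with controls 1 and 2 averaged, and Derl3 overlapped on the single arrays. The genes named next were chosen after their values were seen. Ero1b, at 0.73, and Derl3, at 0.56, had the smallest p among them, and Birc5, a gene of dividing cells, was at -0.78. The chaperone genes Hsp90b1, Dnajb11, Canx and Dnajc3 were at 0.19, 0.18, 0.17 and 0.16 and calreticulin, Calr, at -0.10, none of them past the threshold.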
